A study of Mus musculus with 12 samples.

Results

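Lung RNA of mice kept in hyperoxia or in room air was examined for the enzymes that attach glutathione, glucuronic acid or sulfate to reactive and foreign molecules. The array annotation gave 56 of 35556 transcript clusters a gene symbol beginning with Gsta, Gstm, Gstp, Gstt, Gsto, Gstk, Mgst, Ugt1, Ugt2 or Sult, and all 56 were kept whatever their level. They cover 64 genes, since 46 clusters carried 1 symbol and 10 were shared by several genes of a family. A transcript cluster is a set of short probes along a gene that the array summarises as a single value, given here on a log2 scale.

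Glutathione S-transferases (GSTs) join glutathione to electrophiles, among them the aldehydes formed when oxygen radicals attack membrane lipids, and several also reduce lipid peroxides. UDP-glucuronosyltransferases (UGTs) and sulfotransferases (SULTs) make hormones, bilirubin, phenols and drugs water soluble with activated glucuronic acid or sulfate, and the conjugates leave the cell through ABC transporters. In the lung these enzymes are best known from the airway epithelium, and genes of several GST classes are known targets of the transcription factor Nrf2, which binds antioxidant response elements.

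Wild-type C57BL/6J mice aged 8 to 10 weeks were exposed to hyperoxia (FiO2 above 0.95) for 48 h or stayed in room air. Female and male mice of each treatment gave 4 groups of 3 Affymetrix Mouse Gene 1.0 ST arrays, and every array held lung RNA pooled from 4 mice. The error behind each p-value is therefore that of pools, and single mice were not measured. Hyperoxia was compared with room air in each sex, the 2 responses were compared with each other (the interaction, in which the female log2 fold change is subtracted from the male one), and males were set against females within each treatment.

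Array medians lay between 8.12 and 8.20, the correlation between arrays was 0.969 to 0.995, and no pair of arrays was identical. The mean of 8 alveolar type 2 markers was 12.14 to 12.75 on all arrays, as for lung tissue. Squamous epithelium markers, which lung parenchyma does not normally express, varied widely between pools (mean of 17 genes 7.36 to 10.46), were not called in either sex (limma, 0 also at an unadjusted p under 0.05), and were highest in female hyperoxia pool 1, female room air pool 1 and female room air pool 3. Since transferases are abundant in liver, 8 hepatocyte markers were checked, and their mean was 7.61 to 8.88 with none called in either sex (limma, 0 also at an unadjusted p under 0.05).

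By the calls, hyperoxia raised clusters of the alpha class genes Gsta1 and Gsta2, the pi class gene Gstp1 and the omega class gene Gsto1 in males. It lowered the theta class genes Gstt1 and Gstt3 in both sexes. Gstp1 also rose in females (0.47, limma adjusted p = 0.000225), short only of the fold threshold. The arrays of the 4 shared alpha clusters did not overlap in females either. The interaction had 0 calls, so these calls do not show a response particular to males. A call needed both a limma p under 0.05 after Benjamini-Hochberg adjustment over all 35556 clusters and a fold change of at least 1.4 (0.485 on the log2 scale). In males 9 of the 56 clusters were called (16.1 percent), against 7.34 percent of all clusters. Of these, 7 were higher, against a background of 3.94 percent, and 2 were lower, against 3.39 percent. In females 2 of 56 were called (3.57 percent), against 6.52 percent of all clusters, with 0 higher against 3.59 percent and 2 lower against 2.93 percent. In all, 9 were called in at least 1 sex, against 8.38 percent of all clusters, and 0 were called higher in both sexes, against 3.15 percent. An unadjusted p under 0.05 was reached by 9 clusters above and 5 below the room air level in females, and by 12 and 6 in males. The share of all clusters at that unadjusted p was not computed for hyperoxia against room air. At a limma adjusted p under 0.05 with no fold threshold, 10.7 percent of the members passed in females, against 17.7 percent of all clusters. In males 21.4 percent passed, against 19.3 percent. The count in males rests in part on the 4 clusters shared by the same alpha genes: of the 46 clusters with 1 symbol, 4 were called in males (8.7 percent, against 9.78 percent of all clusters with 1 symbol) and 2 in females (4.35 percent, against 8.85 percent). The larger share of members called in males was therefore not seen without the shared clusters. The median log2 fold change of the 56 clusters was 0.03 in females and 0.09 in males, against -0.02 and 0.00 over all clusters.

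Counted by arrays that did not overlap between hyperoxia and room air, 17 clusters were higher in males (30.4 percent of the members, 16.2 percent of all clusters) and 7 were lower (12.5 percent, against 16.7 percent). In females 7 were higher (12.5 percent, against 14.7 percent) and 5 were lower (8.93 percent, against 15.7 percent). The 7 higher in females were the 4 shared alpha clusters, Gsta3, Gstp1 and the shared Ugt1a cluster, and these were among the 17 in males. The 5 lower in females were Gstt1, Gstt2, Gstt3, Gstk1 and Gstm7, and males added Gstm1 and Mgst2.

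**Figure D1:**
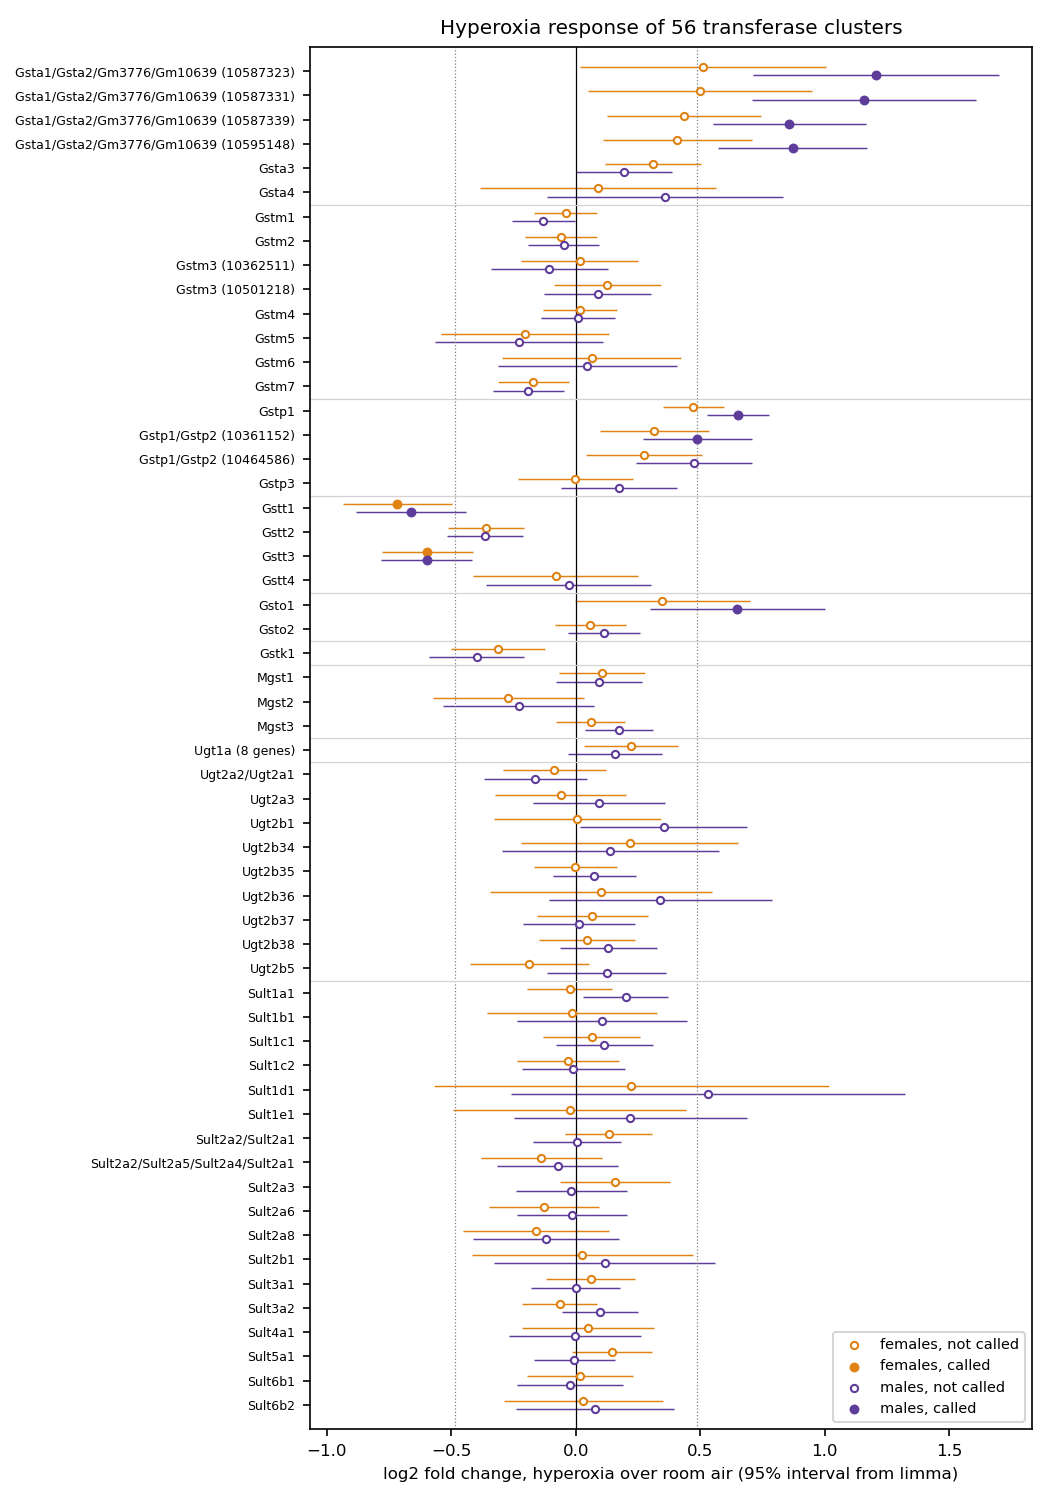
Response to hyperoxia, as the log2 fold change over room air, of all 56 transferase clusters (x axis), in females (orange) and males (purple), with the 95 percent interval from limma. Filled points were called, and dotted lines mark a fold change of 1.4 in either direction. The 7 clusters called higher are filled in males alone, while Gstt1 and Gstt3 are filled on the left in both sexes.

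In males the alpha class held the largest changes among the members, while in females those of Gstt1 and Gstt3 were larger. Gsta1 and Gsta2 encode the alpha class enzymes known for reducing lipid hydroperoxides, and the array measures them, with the predicted genes Gm3776 and Gm10639, through 4 clusters that all carry these 4 symbols. The genes can therefore not be told apart here, and the 4 clusters are not independent. The stretches upstream of their transcription starts are shown to make the likeness visible. Over the 250 bases before the start, Gsta1, Gm3776 and Gm10639 were 99.1 to 99.6 percent identical in aligned columns, and Gsta2 was 83.2 to 84.1 percent identical to the others. The RefSeq sequences below (GRCm38.p6, 5′ to 3′) have an 18-base run that all 4 share in capitals: Gsta1 at chr9:78230521-78230628 on the plus strand, Gsta2 at chr9:78347189-78347296 on the minus strand, Gm3776 at chr9:78256994-78257101 and Gm10639 at chr9:78289795-78289902, both on the plus strand.
Gsta1: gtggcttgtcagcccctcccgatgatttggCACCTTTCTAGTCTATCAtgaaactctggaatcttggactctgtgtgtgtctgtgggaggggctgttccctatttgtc
Gsta2: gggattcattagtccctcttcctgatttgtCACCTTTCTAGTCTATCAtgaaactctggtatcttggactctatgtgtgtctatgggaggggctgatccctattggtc
Gm3776: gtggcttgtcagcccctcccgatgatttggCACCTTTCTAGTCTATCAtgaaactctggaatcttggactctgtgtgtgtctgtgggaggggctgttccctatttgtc
Gm10639: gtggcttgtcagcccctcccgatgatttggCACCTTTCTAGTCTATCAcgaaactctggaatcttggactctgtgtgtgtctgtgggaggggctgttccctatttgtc

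In males, cluster 10587323 of these genes had log2 values of 8.83, 9.26 and 8.84 in room air and 10.45, 10.19 and 9.91 in hyperoxia. The groups lay far apart, with every hyperoxia pool above every room air pool. The log2 fold change was 1.21 (SE 0.22), a 2.31-fold rise with a limma adjusted p of 0.00313. In females the values were 9.44, 9.05 and 9.20 in room air and 10.25, 9.48 and 9.48 in hyperoxia. The female groups did not overlap either, but hyperoxia pool 1 stood well above the other female hyperoxia pools and within the male range. The female log2 fold change of 0.51 (SE 0.22) had an adjusted p of 0.169 and was not called.

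The 3 other clusters of these genes gave the same picture. In males the log2 fold change was 1.16 (SE 0.20) for cluster 10587331, with an adjusted p of 0.00227, 0.86 (SE 0.14) for 10587339, with 0.0014, and 0.87 (SE 0.13) for 10595148, with 0.0011. In females it was 0.50, 0.43 and 0.41 in the same order, with adjusted p-values of 0.135, 0.0561 and 0.066, and the groups of arrays did not overlap in any of the clusters. Leaving out female hyperoxia pool 3 brought the female change of clusters 10587339 (0.55, adjusted p = 0.0268) and 10595148 (0.52, adjusted p = 0.033) past both thresholds. Leaving out female hyperoxia pool 1 instead lowered the female changes of the 4 clusters to 0.26 (adjusted p = 0.495), 0.27, 0.29 and 0.26, from 0.51, 0.50, 0.43 and 0.41, so both the female call and the size of the female change depend on single pools. Female hyperoxia pool 1, the highest of the female pools in all 4 clusters, was also the pool highest in squamous markers. With the mean of these markers as a covariate, the changes of cluster 10587323 were 0.52 in females (adjusted p = 0.0966) and 1.23 in males (adjusted p = 0.00156). With the mean of the club cell markers, described with the theta class, as the covariate they were 0.22 in females (adjusted p = 0.963) and 0.87 in males (adjusted p = 0.556). The male calls of all 4 clusters were lost. That covariate separated the treatments almost as the groups do, and the SE for cluster 10587323 rose to 0.43 in females and 0.48 in males. The part of club cells in the alpha results was not tested. With the replicate number as a block within each sex, clusters 10587339 and 10595148 passed the p threshold in females (adjusted p = 0.0202 and 0.0173) but not the fold threshold.

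Gsta3, the alpha class enzyme known in mice for detoxifying aflatoxin epoxide, had smaller differences. Its values were 11.06, 11.22 and 11.33 in female room air and 11.51, 11.46 and 11.58 in female hyperoxia, against 11.23, 11.50 and 11.42 and then 11.63, 11.57 and 11.54 in males. Hyperoxia pools were above room air pools in both sexes, by 0.31 in females (adjusted p = 0.0311) and 0.20 in males (adjusted p = 0.173), and neither difference reached a fold of 1.4. Gsta4, the alpha enzyme most active toward the lipid aldehyde 4-hydroxynonenal, differed by 0.09 in females and 0.36 in males and was not called (adjusted p = 0.909 and 0.349).

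**Figure D2:**
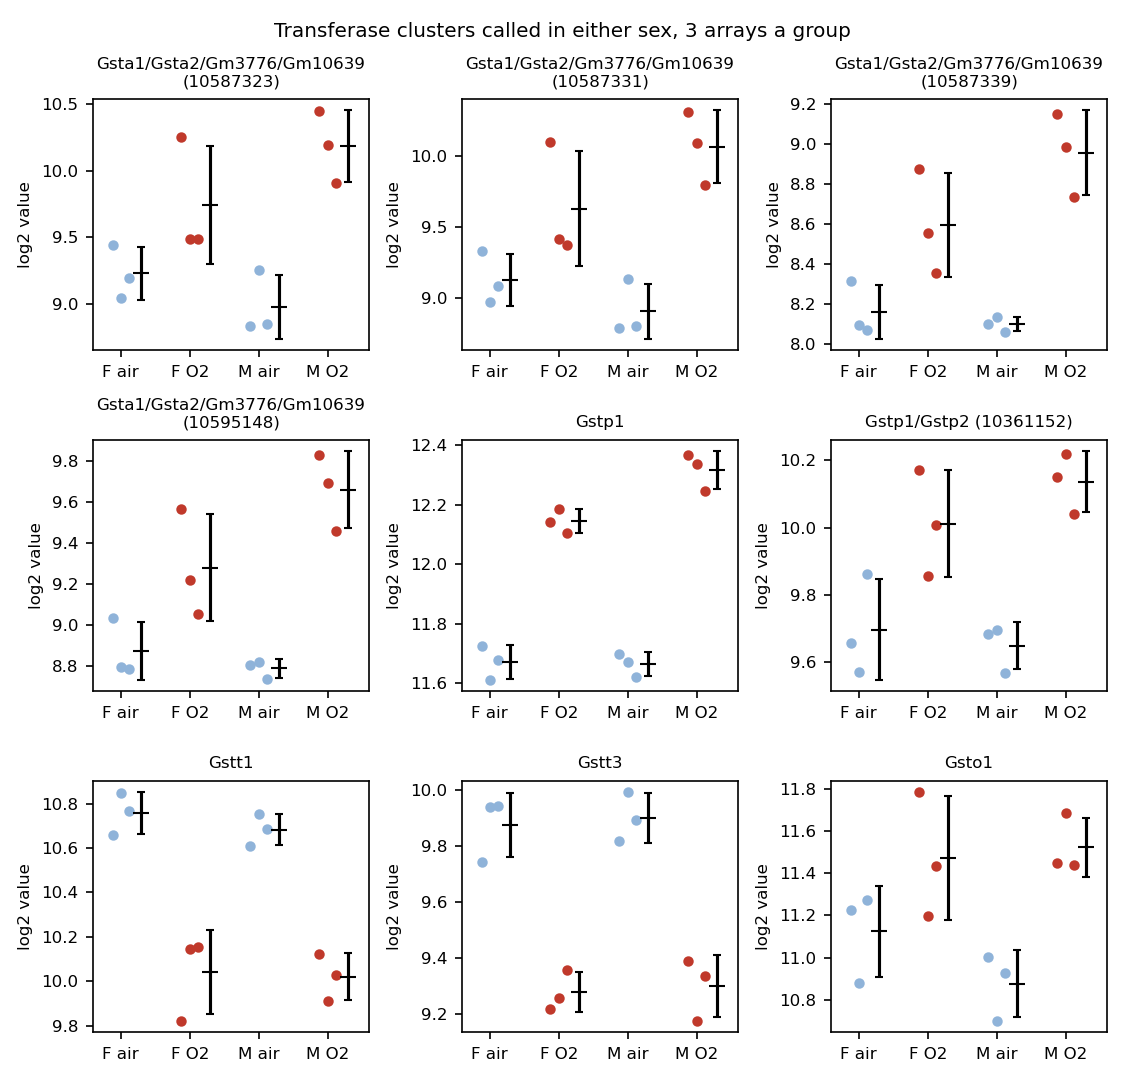
Log2 value (y axis, scaled separately in each panel) of the 9 transferase clusters called in either sex, with F for females, M for males, air for room air and O2 for hyperoxia. Each point is an array of RNA pooled from 4 mice, and the line beside each group is its mean with the SD of 3 arrays. The 4 shared alpha clusters, Gstp1, the shared Gstp1 and Gstp2 cluster and Gsto1 are higher in hyperoxia, and Gstt1 and Gstt3 are lower with no overlap in either sex.

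Gstp1, of the pi class, rose in males with the smallest standard error of the 9 clusters called. Pi class enzymes conjugate small electrophiles such as acrolein, and Gstp1 protein also restrains the stress kinase JNK. Gstp1 and Gstp2 are neighbours on chromosome 19 whose 250 bases before the start were 85 percent identical in aligned columns, and 2 of the 4 pi clusters are shared by both. The stretch around a TGAGTCA motif, the binding sequence of AP-1, is shown for both genes with the motif in capitals (GRCm38.p6, minus strand, Gstp1 at chr19:4037950-4038016 and Gstp2 at chr19:4042274-4042340).
Gstp1: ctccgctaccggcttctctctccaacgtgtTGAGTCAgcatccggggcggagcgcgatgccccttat
Gstp2: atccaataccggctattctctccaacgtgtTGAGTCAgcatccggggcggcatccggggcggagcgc

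The cluster that carries Gstp1 alone had values of 11.70, 11.67 and 11.62 in male room air and 12.37, 12.33 and 12.25 in male hyperoxia. In females it had 11.73, 11.61 and 11.68 in room air and 12.14, 12.19 and 12.11 in hyperoxia. In both sexes the groups were separated by several times their spread. The log2 fold change was 0.65 in males (SE 0.06, fold 1.57, adjusted p = 2.51e-05) and 0.47 in females (SE 0.06, fold 1.39, adjusted p = 0.000225). The female change passed the p threshold but lay just under the fold threshold, so its absence from the female calls is a matter of that threshold. It was past it with the arrays centred on their medians (0.51) and without female room air pool 1 (0.50) or female hyperoxia pool 3 (0.49).

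The shared Gstp1 and Gstp2 cluster 10361152 had 9.68, 9.70 and 9.57 in male room air and 10.15, 10.22 and 10.04 in male hyperoxia, and its log2 fold change of 0.49 was just inside the threshold (adjusted p = 0.00531). In females it had 9.66, 9.57 and 9.86 in room air and 10.17, 9.86 and 10.01 in hyperoxia, with a change of 0.32 (adjusted p = 0.0513). Female room air pool 3 and female hyperoxia pool 2 met at 9.86, although each hyperoxia pool was above the room air pool of the same number. With the replicate number as a block within each sex, added after the data were seen, the limma adjusted p was 0.0355. The labels do not say that the numbers pair the pools. The other shared cluster, 10464586, lay just outside, at 0.47 in males (adjusted p = 0.00923) and 0.27 in females (adjusted p = 0.114). Without male room air pool 3, male hyperoxia pool 1 or male hyperoxia pool 2 the first of these lost its male call. The second gained a male call without male room air pool 1 (0.50), male room air pool 2 (0.49) or male hyperoxia pool 3 (0.52), with arrays centred on their medians (0.52) and with the squamous covariate (0.49). Gstp3 did not pass the test, with changes of -0.00 and 0.17.

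Gsto1, the omega class enzyme that reduces dehydroascorbate and removes glutathione from proteins, had 11.00, 10.70 and 10.93 in male room air and 11.45, 11.69 and 11.44 in male hyperoxia. Every male hyperoxia pool was above every male room air pool, and the log2 fold change was 0.65 (SE 0.16, adjusted p = 0.0154). In females the values were 11.22, 10.88 and 11.27, then 11.79, 11.20 and 11.44. These overlapped, although each hyperoxia pool was above the room air pool of the same number. The change of 0.35 was not called (adjusted p = 0.192, and 0.117 with the replicate number as a block within each sex). The male call was lost without male room air pool 2 (0.56, adjusted p = 0.0542) or male hyperoxia pool 2 (0.57, adjusted p = 0.067). Gsto2 differed by 0.06 and 0.11 and was not called.

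Of the 4 theta class genes, Gstt1 and Gstt3 fell in both sexes. Theta enzymes conjugate small halogenated compounds and epoxides and have little activity toward the usual test substrates of other GSTs. Gstt1 had 10.66, 10.85 and 10.77 in female room air and 9.82, 10.14 and 10.16 in female hyperoxia. In males it had 10.61, 10.75 and 10.69 in room air and 10.12, 9.91 and 10.03 in hyperoxia. All hyperoxia pools were below all room air pools in both sexes. The log2 fold change was -0.72 in females (SE 0.10, fold 0.608, adjusted p = 0.000582) and -0.66 in males (fold 0.632, adjusted p = 0.000878).

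Gstt3 had 9.74, 9.94 and 9.94 in female room air and 9.22, 9.26 and 9.36 in female hyperoxia, and in males 9.81, 9.99 and 9.89, then 9.39, 9.17 and 9.33. The groups did not overlap in either sex, and the log2 fold change was -0.60 in females (SE 0.08, adjusted p = 0.000582) and -0.60 in males (adjusted p = 0.000519). Gstt2 was lower by a log2 fold change of -0.36 in each sex (adjusted p = 0.00421 in females and 0.00355 in males), short of the fold threshold but with no overlap of arrays. Gstt4 differed by -0.08 and -0.03 and did not pass the test. Thus 2 of the 56 members (3.57 percent) were called lower in both sexes, against 2.33 percent of all clusters, and of all clusters called lower in females 79.5 percent were also called lower in males.

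Gstk1, the kappa class enzyme of mitochondria and peroxisomes, was also lower below the fold threshold. Its values were 11.70, 11.90 and 12.00 in female room air and 11.48, 11.53 and 11.65 in female hyperoxia, and in males 11.81, 11.98 and 11.88, then 11.53, 11.52 and 11.42. The arrays did not overlap, and the log2 fold changes were -0.31 (adjusted p = 0.0286) and -0.40 (adjusted p = 0.0076). Fewer cells of a type and less RNA per cell cannot be told apart in whole lung, and some markers of epithelial and vascular cells were lower in hyperoxia too. Over all clusters 2.93 percent were called lower in females and 3.39 percent in males. Of 9 club cell markers 3 were called lower in each sex (Scgb3a2, Cckar and Lypd2). At an unadjusted limma p under 0.05, 6 were lower and 1 was higher in each sex. The higher one was Kcnk2 (0.48 in females and 0.33 in males, not called). The mean of the 9 markers was 12.04 to 12.15 in female room air, 11.73 to 11.89 in female hyperoxia, 12.01 to 12.20 in male room air and 11.72 to 11.86 in male hyperoxia. Of 8 alveolar type 2 markers 5 were called lower in females and 3 in males (mean 12.62 to 12.70, then 12.14 to 12.29 in females, and 12.61 to 12.75, then 12.24 to 12.30 in males). Of 10 endothelial markers 5 were called lower in each sex (mean 11.58 to 11.68, then 11.14 to 11.24 in females, and 11.61 to 11.84, then 11.21 to 11.24 in males). The endothelial markers Cdh5, Cldn5 and Esam differed little (-0.00, 0.02 and 0.08 in females, 0.04, 0.11 and 0.09 in males). Of 7 alveolar type 1 markers 1 was called higher (Aqp5, 0.50 and 0.52) and 1 lower (Rtkn2, -1.97 and -1.56) in each sex.

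With the club cell mean as a covariate, Gstt1 had a log2 fold change of -0.82 in females (adjusted p = 0.0647) and -0.78 in males (adjusted p = 0.12), and Gstt3 had -0.65 and -0.66 (adjusted p = 0.0802 and 0.121). The covariate separated the treatments almost as the groups do, and in that fit 0 transferases were called in either sex by limma, with 7 in females and 9 in males at an unadjusted p under 0.05. Over all clusters the same fit called 1047 in females and 798 in males, where 2318 and 2609 had been called without it. The part of the alveolar and endothelial markers in the theta and kappa results was not tested.

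The mu class, with 8 clusters for 7 genes, had no member called in either sex by limma, with 1 cluster at an unadjusted p under 0.05 in females and 2 in males. Mu enzymes conjugate many epoxides and quinones. Gstm1 had 12.26, 12.31 and 12.25 in female room air, 12.28, 12.18 and 12.24 in female hyperoxia, 12.33, 12.32 and 12.46 in male room air and 12.29, 12.21 and 12.21 in male hyperoxia. The female groups overlapped and the male hyperoxia pools were just below the male room air pools. The 95 percent interval of the log2 fold change ran from -0.17 to 0.09 in females and from -0.26 to -0.00 in males, and so held no change of the fold required for a call. Gstm5 had the largest mean change of the class, at -0.20 and -0.23, and over all 8 clusters the changes ran from -0.20 to 0.13 in females and from -0.23 to 0.09 in males.

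The 3 microsomal enzymes, a separate family of membrane proteins that conjugate glutathione and reduce lipid peroxides, were not called. Mgst1 differed by 0.11 and 0.09 and Mgst3 by 0.06 and 0.17, and Mgst2, which can also make leukotriene C4, by -0.27 and -0.23 (limma, 0 clusters at an unadjusted p under 0.05 in females and 1 in males).

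Of the glucuronosyltransferases none was called. A single cluster stands for 8 genes of the Ugt1a locus, which share their last exons and include Ugt1a1, the bilirubin enzyme, and Ugt1a6a, a phenol enzyme. It had 9.26, 9.17 and 9.26 in female room air, 9.66, 9.29 and 9.40 in female hyperoxia, 9.33, 9.24 and 9.34 in male room air and 9.43, 9.47 and 9.48 in male hyperoxia. Hyperoxia pools were above room air pools in both sexes, by 0.22 (adjusted p = 0.111) and 0.16 (adjusted p = 0.279), and the differences did not pass the test. The 9 UGT2 clusters, whose genes act on steroids, bile acids and odorants, changed by -0.19 to 0.22 in females and by -0.16 to 0.35 in males, with 0 at an unadjusted p under 0.05 in females and 1 in males. Ugt2b37 had changes of 0.07 and 0.01, and Ugt2b36 had 0.10 and 0.34, with signs that turned without a single pool in females.

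The 18 sulfotransferase clusters were not called either, with 0 at an unadjusted p under 0.05 in females and 1 in males. Sult1d1, which sulfates catecholamines and eicosanoids, had values of 10.01, 9.82 and 10.44 in female room air, 10.93, 9.47 and 10.54 in female hyperoxia, 10.09, 9.44 and 10.35 in male room air and 10.24, 10.76 and 10.48 in male hyperoxia. Pools of the same group differed by as much as the group means did, and the groups overlapped in both sexes. Its log2 fold change of 0.53 in males had a 95 percent interval from -0.26 to 1.32 (adjusted p = 0.421) and that of 0.22 in females one from -0.57 to 1.02 (adjusted p = 0.834), so changes beyond the fold threshold in either direction were within the female interval. Sult1a1, the main phenol sulfotransferase, differed by -0.03 and 0.20, with adjusted p-values of 0.934 and 0.106.

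Of the 56 clusters, 13 had a mean log2 value under 5, near the bottom of the range, and these were 10 SULT and 3 UGT2 clusters. None of them was called, and of all 2499 clusters that dim 0.2 percent were called in females and 0.24 percent in males. Among the 43 brighter members 4.65 percent were called in females and 20.9 percent in males, against 7 and 7.87 percent of all 33057 brighter clusters.

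**Figure D3:**
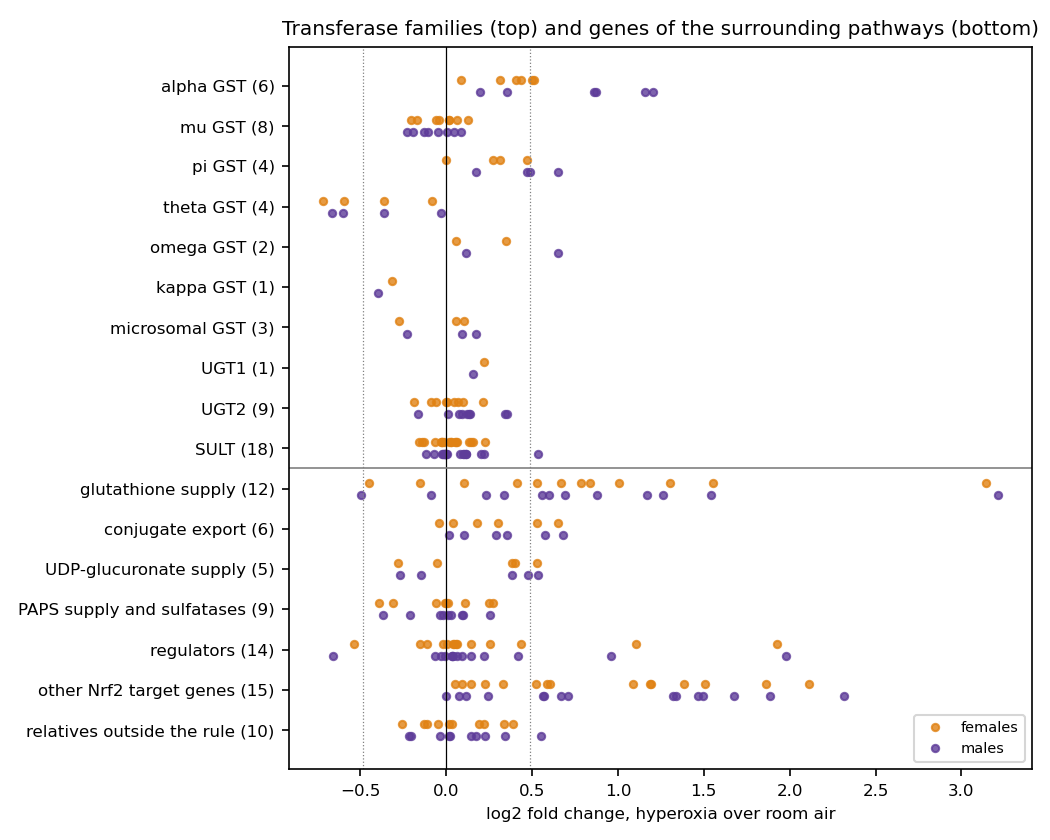
Response to hyperoxia, as the log2 fold change over room air (x axis), of each transferase cluster, by family, above the grey line, and of genes of the surrounding pathways below it, in females (orange) and males (purple). The number of clusters or genes stands in parentheses, and dotted lines mark a fold change of 1.4. The alpha and pi classes lie mostly to the right and the theta class to the left, and genes of glutathione supply and other Nrf2 targets reach further right than any transferase.

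The genes that feed and surround these enzymes were examined as lists of 76 genes, of which 71 had a cluster of their own. In females 23 of these were called higher and 1 was called lower, against 3.59 and 2.93 percent of all clusters. In males 25 were called higher and 2 lower, against 3.94 and 3.39 percent. With 1 cluster per gene, 8.55 percent of all genes were called in either direction in females and 9.53 percent in males. The lists were chosen with earlier results of these data known, so these shares describe the lists and do not test them. The median log2 fold change of the listed genes was 0.22 in each sex. Of 12 genes of glutathione supply, 8 were higher in both sexes: Slc7a11, the cystine importer (3.14 in females and 3.21 in males), Chac1, which degrades glutathione (1.55 and 1.54), Gclc and Gclm, the subunits of the rate-limiting enzyme of glutathione synthesis (1.30 and 1.26, then 1.01 and 1.17), Pgd of the pentose phosphate pathway (0.84 and 0.88), Slc3a2, the partner chain of Slc7a11 (0.78 and 0.69), glutathione reductase Gsr (0.67 and 0.60) and glutathione synthetase Gss (0.53 and 0.56). The adjusted p-values of these 8 genes were at most 0.000223 in either sex. Ggt5, which cleaves glutathione conjugates outside the cell, was called lower in males (-0.50). In females its change of -0.45 passed the p threshold (limma adjusted p = 0.00449) but not the fold threshold.

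Of 6 transporters of conjugates, Abcc1 and Abcc3, both exporters of glutathione and glucuronide conjugates, were higher in both sexes (0.53 and 0.65 in females, 0.68 and 0.57 in males). Of 5 genes that supply or remove glucuronic acid, Ugdh, which oxidises UDP-glucose to UDP-glucuronate, was called in females (0.53) and lay just under the fold threshold in males (0.48), while Ugp2, which makes UDP-glucose, was called in males (0.53) and not in females (0.40). Of 9 genes of sulfate activation and sulfatases 0 were called by limma, with 4 at an unadjusted p under 0.05 in females and 3 in males.

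Of 14 regulators, the small Maf genes Maff and Mafk, whose proteins pair with Nrf2 on DNA, were higher in both sexes (1.92 and 1.10 in females, 1.98 and 0.96 in males), and Ahr, the aryl hydrocarbon receptor, was lower (-0.53 and -0.66). Mafg was higher by 0.43 and 0.42, past the p threshold (limma adjusted p = 0.00377 and 0.00426) but not the fold threshold. The Nrf2 gene itself, Nfe2l2, differed by 0.26 and 0.22, and Keap1, its inhibitor, by 0.05 and 0.03, and neither was called. Nfe2l2 passed the p threshold in females (limma adjusted p = 0.0361) and not in males (0.064), while Keap1 passed it in neither sex (0.803 and 0.873). Of 15 other known Nrf2 target genes, 10 were higher in females and 11 in males, among them Akr1b8 (2.11 and 2.32), Srxn1 (1.86 and 1.89), the selenium glutathione peroxidase Gpx2 (1.51 and 1.68), Nqo1 (1.38 and 1.50) and Hmox1 (1.19 and 1.34). Each of these 5 changes was larger than that of any transferase cluster in the same sex. Of 10 relatives of the transferases, Hpgds, the sigma class GST that makes prostaglandin D2, was called in males (0.55) and not in females (0.39, adjusted p = 0.0705).

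The core of the antioxidant response element, TGACNNNGC, was searched on both strands from 250 bases before to 50 after each RefSeq transcription start. It was found for 4 of the 58 member genes that had a promoter sequence (6.9 percent), against 14 percent of all genes and 12.4 percent of all promoters of that length. The genes were Gsta3, Gstm5, Gstm7 and Mgst1, none of which was called. Other forms of the element and sites outside this window were not searched, so a gene without a match may still have one. The Gsta3 stretch is shown because its position and letters can be read against the alpha sequences above, with the motif in capitals (GRCm38.p6, chr1:21240434-21240502, plus strand).
Gsta3: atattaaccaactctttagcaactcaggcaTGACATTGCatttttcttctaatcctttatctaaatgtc

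The motif TGAGTCA, chosen after the Gstp1 and Gstp2 promoters had been read, was found on either strand for 9 of the 58 member genes (15.5 percent), against 5.95 percent of all genes and 5.2 percent of all promoters. The genes were Gstm5, Gstp1, Gstp2, Mgst2, Sult1b1, Sult1c1, Sult2b1, Ugt2a2 and Ugt2b37, so that most of them did not pass the test. Gstp1 and Gstp2, which led to the choice of this motif, are counted among the 9. Part of the excess was thus fixed in advance. A match is a description of letters in this window, and the windows of Gsta1, Gsta2, Gm3776 and Gm10639 held neither motif.

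Whether the sexes differed in their response was tested by the interaction, in which 0 of the 56 transferases and 0 percent of all clusters were called by limma. At an unadjusted p under 0.05 there were 3 transferases (5.36 percent), against 1.45 percent of all clusters, and all 3 had the larger log2 fold change in males. They were the shared alpha clusters 10595148 (difference 0.46, SE 0.19) and 10587331 (0.66, SE 0.29), and Gstp1 (0.18, SE 0.08), each with a limma adjusted p of 1.00. For cluster 10587323, with the largest male change, the difference was 0.70, with a 95 percent interval from -0.0042 to 1.40. No test here shows that the response differed between the sexes, and for the alpha clusters the intervals also include differences as large as the female response itself.

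**Figure D4:**
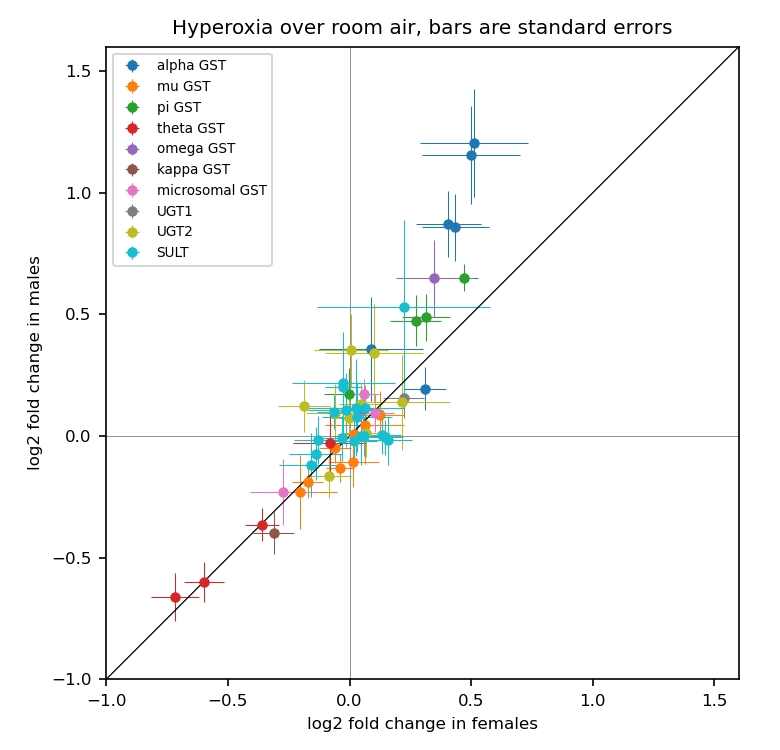
Response to hyperoxia, as the log2 fold change over room air, in males (y axis) against females (x axis), for the 56 transferase clusters, coloured by family, with the standard error from limma. On the diagonal line the response is the same in both sexes. The theta clusters lie close to the line, and the shared alpha clusters lie above it, at 0.41 to 0.51 in females and 0.86 to 1.21 in males.

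In hyperoxia itself 0 transferases were called between males and females by limma, against 0.0169 percent of all clusters, and 6 had an unadjusted p under 0.05 (10.7 percent, against 3.26 percent of all clusters). These 6, all higher in males, were Gstp1 (0.17, SE 0.06), Sult1e1, the estrogen sulfotransferase (0.61, SE 0.21), the shared alpha clusters 10595148 (0.38, SE 0.13) and 10587339 (0.36, SE 0.14), Ugt2b1 (0.39, SE 0.15) and Ugt2b5 (0.28, SE 0.11), with a limma adjusted p of 0.945 each. In room air 0 were called, against 0.0141 percent of all clusters, and 1 had an unadjusted p under 0.05 (1.79 percent, against 2.44 percent). This was Sult1a1, with 9.50, 9.50 and 9.70 in females and 9.17, 9.34 and 9.39 in males, a difference of -0.27 (SE 0.08, adjusted p = 1.00).

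Neutrophil and macrophage markers were examined too. Of 7 neutrophil markers 5 were called lower in males and 0 in females (limma, 0 in females also at an unadjusted p under 0.05). Over all clusters 3.39 percent were called lower in males and 2.93 percent in females. No cluster on the array was called by the interaction, so these calls do not show that the neutrophil markers responded differently in the sexes. The mean of the neutrophil list was 8.68 to 9.36 in male room air and 7.83 to 8.02 in male hyperoxia, and 8.25 to 9.04 and 8.12 to 8.54 in females. Of 7 macrophage markers 3 were called higher in females and 2 in males, against 3.59 and 3.94 percent of all clusters. At an unadjusted limma p under 0.05, 4 were higher and 1 was lower in each sex. The lower one was Siglecf (-0.37 in females and -0.39 in males), short of the fold threshold. The means of the macrophage list were 9.79 to 10.00 and 10.03 to 10.14 in females and 9.61 to 9.80 and 9.99 to 10.19 in males. The part of these cells in the transferase results was not tested.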

How the data were processed

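Lung RNA of 12 pools, 4 mice in each, was hybridised to Affymetrix Mouse Gene 1.0 ST arrays. The authors deposited log2 values per transcript cluster, made by Robust Multichip Average (background correction, quantile normalization across arrays, probe summary), with no version given in the sources used here. These values were used as deposited for 35556 clusters, without a filter. Quantile normalization sets changes relative to the bulk of clusters. The platform annotation gave 21789 clusters 1 symbol and 1621 several, and 12146 were not listed.

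The limma package 3.58.1, run in R 4.3.3, fitted the means of all 4 groups in a single linear model with moderated variances and 5 contrasts, with Benjamini-Hochberg adjustment within each. The procedure was tested on simulated data. Precision is limited by how many arrays there are. A listed gene measured by several clusters was represented by its brightest. Named clusters were those called in either sex, the highest mean and the largest change in each family, the 3 smallest interaction p-values and those nearest the call rule, and others named were chosen after their values were seen. The members, lists and tests were chosen with earlier results of these data known. Alternatives were a replicate block, separate fits of each sex or treatment, eBayes with trend and robust, repeated quantile normalization, median centring, clusters with a mean of at least 5, clusters with 1 symbol, 1 cluster per gene, other thresholds, limma's treat, squamous or club cell means as covariates, and leaving out the 3 pools highest in squamous markers or each array. Deviations from the group means correlated between female room air and female hyperoxia pools of the same number in all 3 pairs (r from 0.28 to 0.70). Female pools of different numbers had r from -0.74 to 0.58. In males r was -0.17 to 0.33 for the same number and -0.46 to 0.40 for different numbers. The labels do not say that the numbers pair the pools, and these values do not settle it. A block within each sex was added. Scan dates were not analysed here. Promoter sequences are RefSeq on GRCm38.p6. For 58 of the 64 genes a promoter was matched.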

Additional observations from a re-analysis of the deposited data

How the results depend on the processing

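In males, where 9 transferase clusters were called, 4 were called with clusters of 1 symbol (8.7 percent, against 9.78 percent of all clusters in that fit) or with 1 cluster per gene (8.89 against 9.53 percent), 2 at a fold of at least 2 (3.57 against 1.21 percent), and 0 by limma's treat at a fold of 1.4 (5 at an unadjusted p under 0.05) or with the club cell mean as a covariate (9 at an unadjusted p under 0.05), where 1.68 and 2.24 percent of all clusters were called. In females, where 2 were called, 6 passed with no fold threshold (10.7 against 17.7 percent of all clusters), 0 at a fold of at least 2, 0 by treat (1 at an unadjusted p under 0.05) and 0 with the club cell covariate (7 at an unadjusted p under 0.05), where 1.06, 1.45 and 2.94 percent of all clusters were called. Leaving out each array in turn gave 2 to 5 in females and 7 to 10 in males, the 5 without female hyperoxia replicate 3. For the pathway lists, 24 genes in females became 39 with no fold threshold, 13 at a fold of at least 2 and 15 by treat, and 27 in males became 12 at a fold of at least 2, 14 by treat and 16 with the club cell covariate, with 23 to 26 and 25 to 27 when arrays were left out. The interaction and both sex differences had 0 calls in all alternatives in which they could be fitted. Signs turned for Gstm1 in females (0.051) and Ugt2b37 in males (-0.029) with the club cell covariate, and when an array was left out for Sult1d1 (-0.084 to 0.64), Ugt2b36 (-0.051 to 0.21) and Ugt2b37 (-0.015 to 0.12) in females and Ugt2b37 in males (-0.075 to 0.071). The negative values came without female hyperoxia replicate 1 for Sult1d1, without female hyperoxia replicate 2 for both UGT2 genes, and in males without room air replicate 2 or hyperoxia replicate 3. None of these had been called, and the cause was not tested. Over all groups, samples with the same replicate number did not deviate together (r from -0.71 to 0.70 over 18 pairs, 6 of them above 0.1), and with the replicate number as a block across all groups 2 transferases were called in females and 9 in males. A block within each sex, added after the data were seen, left the counts at 2 and 9 transferases and 24 and 27 pathway genes. Without the 3 pools highest in squamous markers, which leaves 1 female room air array assumed to vary like the others, 3 were called in females and 9 in males. Median centring moved all log2 fold changes up by 0.04 in each sex. With 3 pools in each group, differences between the sexes of the size seen for the alpha clusters had standard errors of 0.19 to 0.31.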
